A study of Homo sapiens with 12 samples.

Results

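The 10 genes described here, *HM13*, *ID1*, *BCL2L1*, *TPX2*, *PDRG1*, *PLAGL2*, *POFUT1*, *KIF3B*, *ASXL1* and *COMMD7*, lie within 1229043 bases of band q11.21 of human chromosome 20, with other genes between them, and were taken by symbol from the 56266 Ensembl genes of each file. They were selected because earlier looks at these same libraries showed most of them higher in *GATA2* knockout cells, so their genotype differences are given as a description with no test. The cells come from H1, an established human embryonic stem cell (hESC) line, either wild type (WT) or H1-*GATA2*-/-, here KO. KO is a single homozygous clone, made with TALEN nucleases that placed a PGK-neo resistance cassette in *GATA2*. The 10 libraries form 5 groups of 2, which are KO hESCs, WT and KO hemogenic endothelium (HE; CD34+CD31+CD43-) sorted at day 8, and WT and KO hematopoietic progenitor cells (HPCs; CD34+CD43+) sorted at day 9. HE and HPCs were both made by co-culture on mouse OP9 stroma, and 2 WT hESC samples were not analysed here.

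Band 20q11.21 is known in human pluripotent stem cell culture as a recurrent site of extra DNA copies, and *BCL2L1*, *ID1* and *HM13* are the genes usually named for it. *BCL2L1* encodes the survival protein BCL-XL, which holds back BAX and BAK at the mitochondrial membrane, and HE is the endothelium from which blood cells emerge. DNA was not measured in these files. The study describes the karyotype of the undifferentiated KO cells as normal, and chromosome banding in general does not resolve segments as short as this interval. Every KO library derives from 1 clone, so *GATA2* loss and any other property of that clone cannot be told apart. RNA of a sorted population also cannot separate fewer cells of a type from less RNA per cell.

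Levels are TPM, the share of transcripts that a gene takes in a library, a unit per transcript length that keeps no read depth, so the depth is unknown and only the 2 replicates give the error. The labels do not say that replicates were separate cultures, so p-values measure the spread between these libraries, which may be technical. *GATA2* itself had a TPM of 106.8 and 78.0 in WT HE and 110.9 and 94.1 in KO HE, and of 290.1 and 204.2 in WT HPCs and 112.5 and 83.8 in KO HPCs. A gene-level value does not check the genotype, because the altered allele may still be transcribed, and KO means the libraries labelled so throughout. The sorted populations carried their defining genes, with the CD43 gene *SPN* between 1.76 and 8.81 TPM in HE and between 98.0 and 107.9 in HPCs. *PTPRC* (CD45), which was not a sort marker, was at 0 in the 4 HE libraries and between 0.68 and 3.09 in HPCs. It was also at 0.56 and 3.06 in KO hESCs, so it does not mark HPCs here. *POU5F1* was between 2855 and 3332 in KO hESCs and at most 3.02 elsewhere. *PECAM1* (CD31) was not analysed here.

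In HE, 9 of the 10 genes had both KO libraries above both WT libraries, and *COMMD7* did not. In HPCs it was 8 of 10, without *COMMD7* and *ID1*, and the same 8 separated in both stages. Over the 21543 genes that reached 1 TPM in 2 or more libraries, 13.8% separated this way in HE, 19.7% in HPCs and 3.37% in both, or 3.56% of those whose mean TPM was 10 or more. Because the genes were chosen on this contrast, nothing is read from the gap. The median difference over the 10 genes, KO minus WT of log2(TPM + 1), was 0.56 in HE and 0.60 in HPCs, beside −0.01 and 0.05 over all genes tested. In the column headers, replicate 2 of each HE and HPC group carries a shared mark that replicate 1 lacks and that no source explains, so each number is also given by itself. Within replicate number 1 the medians were 0.62 in HE and 0.46 in HPCs, and within number 2 they were 0.57 and 0.74. The working name of the set, genes raised in the knockout, thus describes 8 genes in both stages, *ID1* in HE alone, and not *COMMD7*.

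**Figure D1:**
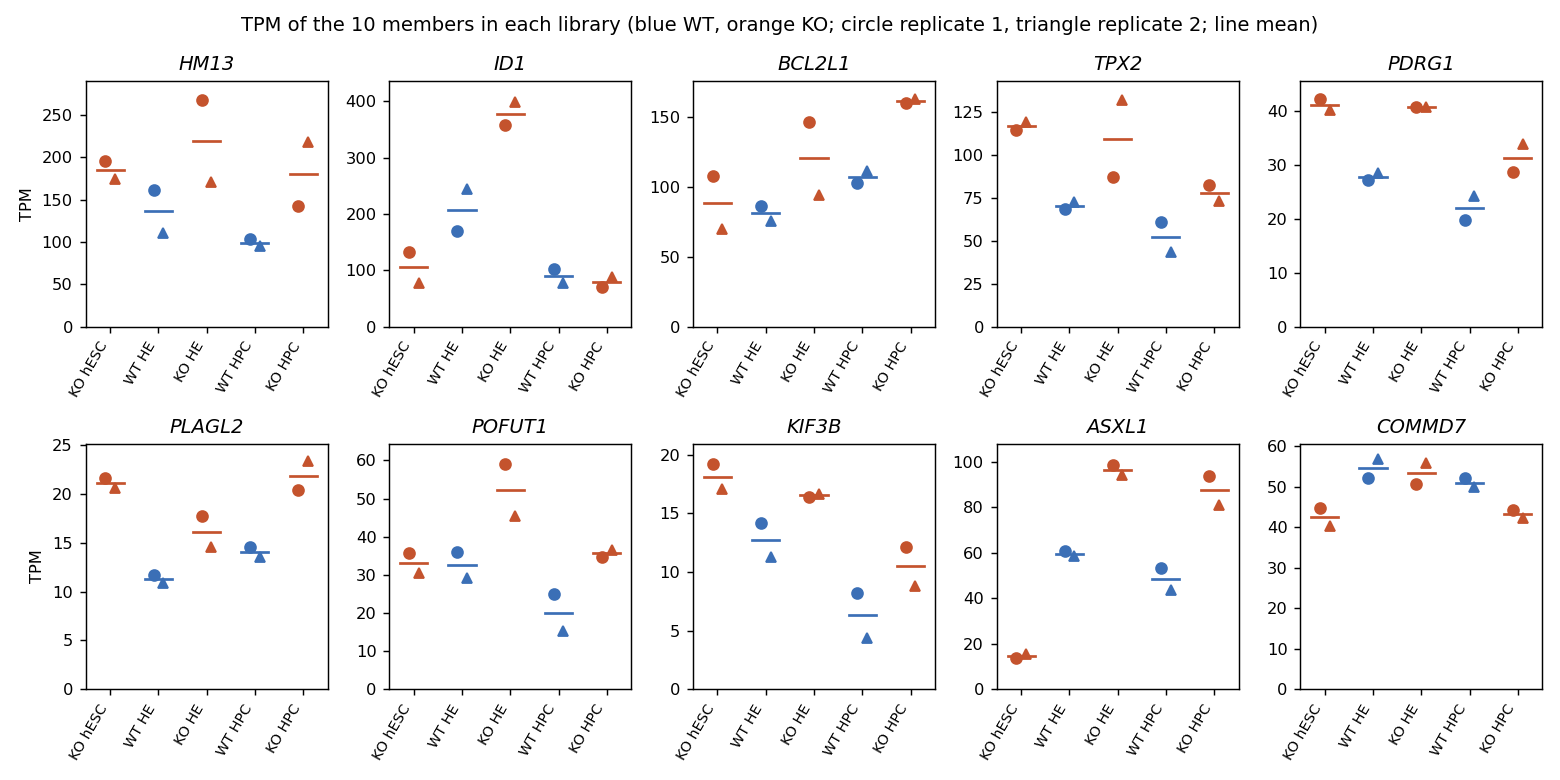
TPM (linear axis from 0) of each of the 10 genes in every library, with WT in blue, KO in orange, replicate 1 as a circle, replicate 2 as a triangle and a line at the group mean. Both KO points sit above both WT points in HE and in HPCs for 8 genes, while *ID1* does so in HE and *COMMD7* in neither.

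Of the genes for survival and cell division, *BCL2L1* (chr20:30252255-30311792, minus strand, GRCh37) had a TPM of 86.6 and 75.9 in WT HE and 146.6 and 94.5 in KO HE. In HPCs it was 103.1 and 111.4 in WT and 160.4 and 163.0 in KO. The KO mean was 1.48 times the WT mean in HE and 1.51 times in HPCs, and the log2 difference in HE went from 0.53 to 0.22 without KO replicate 1, the higher of the pair. *TPX2* (chr20:30327074-30389608, plus strand), which activates Aurora A kinase on the mitotic spindle, had 68.5 and 72.6 TPM in WT HE and 86.9 and 131.7 in KO HE. In HPCs *TPX2* had 61.2 and 43.4 in WT and 82.2 and 72.9 in KO, which gave 1.55 times the WT mean in HE and 1.48 times in HPCs. Without KO HE replicate 2 the log2 difference of *TPX2* in HE was 0.30 in place of 0.60, and without WT HPC replicate 2 that in HPCs was 0.33 in place of 0.58. *KIF3B* (chr20:30865454-30922814, plus strand), a motor subunit of kinesin-2 that carries cargo along microtubules and in cilia, was the least abundant of the 10 genes per length in HPCs. *KIF3B* had 14.2 and 11.3 TPM in WT HE, 16.4 and 16.7 in KO HE, 8.22 and 4.39 in WT HPCs and 12.2 and 8.80 in KO HPCs. The genotypes of *KIF3B* did not overlap in either stage, but in HPCs the lower KO library was just above the higher WT one. With each library left out in turn, its log2 difference ran from 0.21 to 0.51 in HE and from 0.30 to 1.08 in HPCs.

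Among regulators of transcription and chromatin, *ASXL1* (chr20:30946133-31027122, plus strand), a partner of the deubiquitinase BAP1 that is often mutated in myeloid disease, had 60.9 and 58.4 TPM in WT HE and 98.5 and 94.2 in KO HE. In HPCs it had 53.4 and 43.8 in WT and 93.7 and 81.0 in KO. The KO groups stood 1.61 and 1.80 times above WT, with replicates close to each other on both sides. *ID1* (chr20:30193086-30194318, plus strand), a target of BMP signals that binds bHLH factors and keeps them off DNA, had 170.3 and 243.9 TPM in WT HE and 357.4 and 398.5 in KO HE. In HPCs *ID1* had 102.5 and 77.6 in WT and 69.9 and 89.0 in KO, so the genotypes overlapped there. The difference was 0.89 (standard error 0.28) in HE and −0.17 (standard error 0.28) in HPCs on the log2 scale.

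*PLAGL2* (chr20:30780307-30795546, minus strand), a zinc finger transcription factor, and *POFUT1* (chr20:30795658-30826461, plus strand), which adds O-fucose to Notch receptors in the endoplasmic reticulum, are transcribed away from each other. The DNA between their RefSeq start sites, 136 bases at chr20:30795547-30795682 on GRCh37, is shown because both genes share it and both separated by genotype in HE and HPCs. It is printed on the plus strand with CpG dinucleotides in capitals, and *PLAGL2* lies to its left and *POFUT1* to its right.
PLAGL2-POFUT1 shared start region: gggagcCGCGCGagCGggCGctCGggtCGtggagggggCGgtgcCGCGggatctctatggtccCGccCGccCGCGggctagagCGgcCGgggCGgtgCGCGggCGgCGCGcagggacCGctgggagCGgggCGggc
This stretch holds 25 CpG and is 83.8% G or C, and the median over 35116 RefSeq promoter windows of 300 bases is 14 CpG. *PLAGL2* had 11.6 and 10.9 TPM in WT HE and 17.7 and 14.5 in KO HE, and 14.5 and 13.6 in WT HPCs and 20.4 and 23.3 in KO HPCs. *POFUT1* had 35.9 and 29.3 TPM in WT HE and 59.1 and 45.4 in KO HE, and 24.9 and 15.3 in WT HPCs and 34.8 and 36.5 in KO HPCs. The pair thus stood at 1.43 and 1.60 times the WT mean in HE and at 1.56 and 1.77 times in HPCs. The log2 difference of *POFUT1* in HPCs was 0.83, and 0.50 to 1.17 with 1 library left out, lowest without WT HPC replicate 2 and highest without WT HPC replicate 1.

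GATA-type motifs were searched in the RefSeq promoter windows, from 250 bases before to 50 after each start, as the letters AGATAA or AGATAG, and as TGATAA or TGATAG, on both strands. None was found in the 11 windows of the 8 genes that had one, and the table holds no window for *HM13* and *TPX2*. Over all windows 25.0% held such a motif, and 29.1% of 27305 genes held it in at least 1 window. The search covers these letters in these windows alone, and the windows matched GRCh37 at 1 position each although the table is built on GRCh38.

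Of the genes for protein processing and assembly, *HM13* (chr20:30102231-30165726, plus strand), the signal peptide peptidase that cleaves leftover signal peptides within the membrane, was among the most abundant. It had 161.8 and 110.6 TPM in WT HE and 267.7 and 170.8 in KO HE, where the lower KO library was just above the higher WT one. In HPCs *HM13* had 103.6 and 95.0 in WT and 143.2 and 217.7 in KO, a wider gap. With each library left out in turn, the log2 difference of *HM13* ran from 0.35 (without KO HE replicate 1) to 1.00 in HE and from 0.52 (without KO HPC replicate 2) to 1.13 in HPCs. *HM13* overlaps the small gene RP3-324O17.4 on the same strand, with a mean of 8.19 TPM over the libraries, and its antisense RNA *HM13-AS1* was at 0.40, so reads these genes share cannot be told apart. *PDRG1* (chr20:30532140-30539849, minus strand), a prefoldin-like subunit of a chaperone complex for assembling RNA polymerases, had 27.2 and 28.5 TPM in WT HE and 40.8 in both KO HE libraries. In HPCs *PDRG1* had 19.8 and 24.4 in WT and 28.8 and 33.9 in KO.

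*COMMD7* (chr20:31290501-31331273, minus strand), a COMMD protein linked to the control of NF-kappaB and endosomal sorting, is the gene farthest toward the chromosome end. It had 52.1 and 56.9 TPM in WT HE and 50.7 and 55.9 in KO HE, with the genotypes interleaved. In HPCs *COMMD7* had 52.1 and 49.8 in WT and 44.3 and 42.3 in KO, and both KO libraries were below both WT libraries. *COMMD7* also varied least between replicates, with an SD of 0.08 on the log2 scale, against 0.34 for *ID1*.

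Some marker sums also separated by genotype, and others overlapped. The summed TPM of 10 pan-hematopoietic markers was 264.3 to 344.8 in WT HE and 107.7 to 194.1 in KO HE, and 1975 to 2111 in WT HPCs and 1512 to 1845 in KO HPCs. The sum of 10 erythroid markers was 100.5 to 152.7 in WT HE and 39.9 to 48.8 in KO HE, and overlapped in HPCs. Stromal and mesenchymal markers (8 genes) summed to 519.3 to 684.0 in WT HE and 369.0 to 584.0 in KO HE, with overlap. The sort marker gene *CD34* stood at 640.5 and 605.4 TPM in WT HE and 1060 and 925.0 in KO HE, and at 181.4 and 113.8 in WT HPCs and 241.8 and 187.0 in KO HPCs. The sum of 10 endothelial markers was 2795 to 2829 in WT HE and 2994 to 3297 in KO HE, and overlapped in HPCs. Mitochondrial genes took 8.66% to 9.61% of TPM in WT HPCs and 14.8% to 15.1% in KO HPCs, against 6.29% to 6.82% over the 4 HE libraries. The part of the markers in the genotype differences was not tested. With mitochondrial and short RNA genes removed and TPM rescaled, the median of the 10 genes in HPCs was 0.69 and that of all genes 0.13.

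Position along the chromosome was then examined. Between *HM13* and *COMMD7* the files hold 22 protein-coding genes over 1229043 bases, of which 19 have a mean TPM of 1 or more, so 9 expressed neighbours are not among the 10 genes. None of these 9 passed the threshold in either stage (limma, adjusted p under 0.05), which 0.0186% of all tested genes passed in HE and 0.0603% in HPCs. The unadjusted p from limma was under 0.05 for 1045 genes in HE and 1925 in HPCs. The median difference of the 9 was 0.24 in HE and 0.25 in HPCs, and it rested on single libraries. It was 0.07 without WT HE replicate 1 and 0.44 without WT HE replicate 2 in HE. In HPCs it was 0.04 without WT replicate 2, 0.09 without KO replicate 2, 0.38 without KO replicate 1 and 0.46 without WT replicate 1. A pseudocount of 0.1 gave 0.35 and 0.45.

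*TM9SF4*, a multi-spanning membrane protein gene next to *PLAGL2*, was the 1 neighbour with KO above WT in all pairs of both stages. Its TPM was 39.6 and 41.6 in WT HE, 67.7 and 57.5 in KO HE, 43.7 and 30.9 in WT HPCs and 56.2 and 57.1 in KO HPCs, a log2 difference of 0.61 in each stage. *CCM2L*, which is expressed in endothelium, had 49.5 and 58.7 in WT HE and 81.4 and 78.9 in KO HE, but overlapped in HPCs with 15.0 and 5.42 in WT and 12.4 and 12.3 in KO. *NOL4L*, named C20orf112 in the files, differed by 0.29 in HE and 0.25 in HPCs. *MYLK2*, *FOXS1*, *DUSP15* and RP1-310O13.12 reached at most 3.44 TPM in any HE or HPC library, and RP3-324O17.4 lay between 2.15 and 18.9.

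Outside the interval the differences were mixed. *DNMT3B*, the next gene after *COMMD7*, differed by −0.20 in HE and −0.13 in HPCs, and *MAPRE1* after it by −0.13 and 0.11. On the centromere side the nearest expressed genes are *ZNF337* (0.01 and −0.09), *NANP* (0.21 and 0.21) and *NINL* (0.27 and 0.19) on the short arm. The 9 tested genes listed by symbol for the flank on that side had a median of 0.21 in HE and −0.08 in HPCs. In HE this was close to the median of the interval's 9 neighbours, which were taken by position. Among the listed genes, *ABHD12* was at 0.44 in HE and above WT in all pairs there. The 18 tested genes listed by symbol for the flank beyond *COMMD7* had medians of 0.04 and −0.10. Over genes averaging 5 TPM or more, the median was −0.03 in HE and −0.08 in HPCs for the 191 others of the long arm, 0.00 and 0.02 for the 98 of the short arm, and −0.03 and 0.06 for the 10382 of other chromosomes. Ordered by position, the 9 chosen genes from *HM13* to *ASXL1* differed by between 0.36 and 0.89 in HE, followed by *NOL4L* at 0.29 and *COMMD7* at −0.03. These were chosen on this contrast, and the expressed neighbours lying among them were mixed. In HE, RP3-324O17.4 was at −0.61 (standard error 0.54), *CCM2L* at 0.56 and *TM9SF4* at 0.61.

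**Figure D2:**
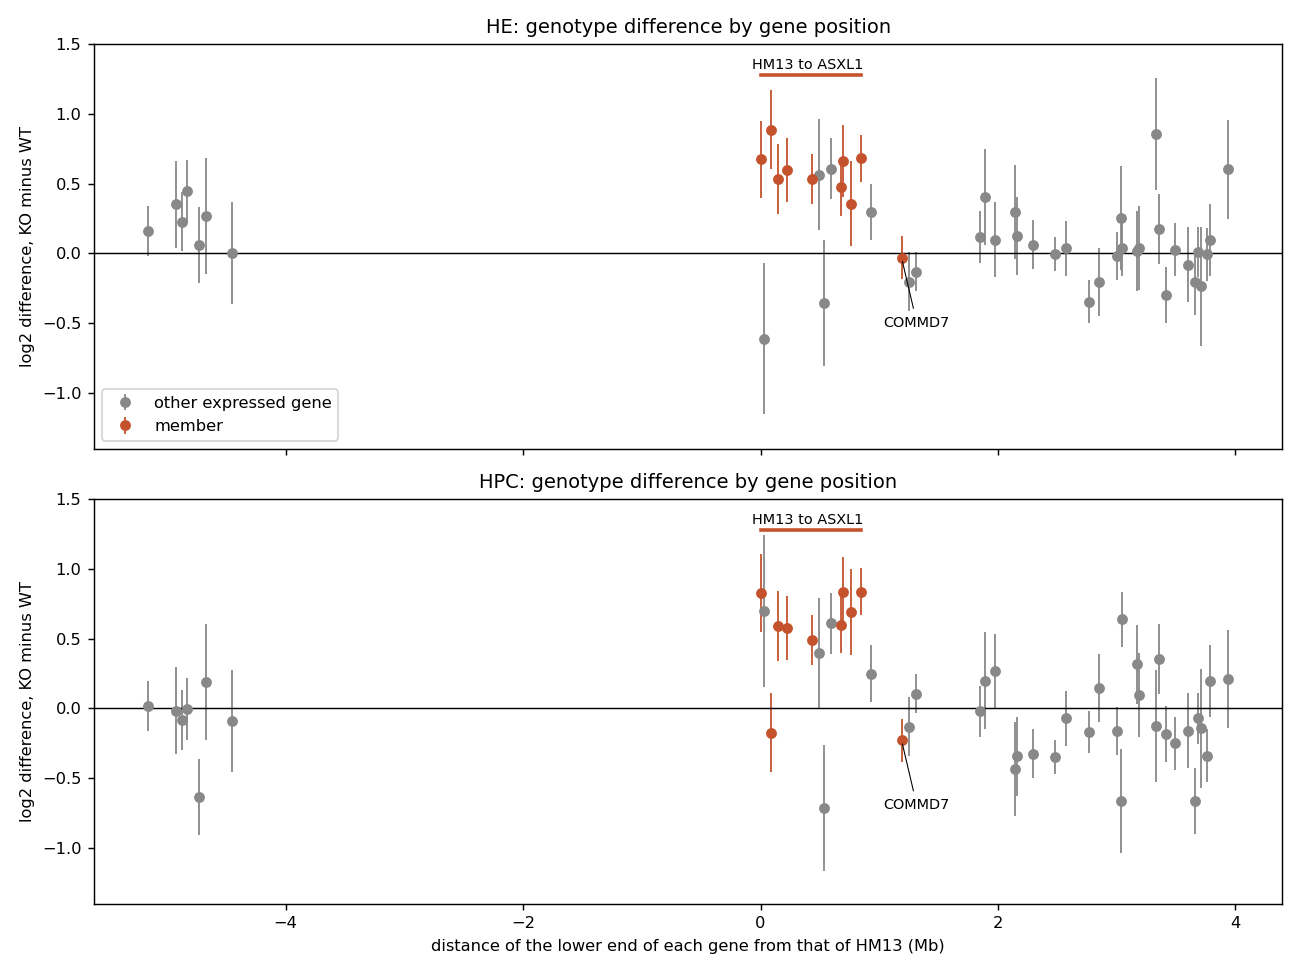
Difference KO minus WT of log2(TPM + 1) in HE (top) and HPCs (bottom) against the distance in Mb of each protein-coding gene averaging 5 TPM or more from *HM13*; orange points are the 10 genes, grey points other genes, and bars the standard error from limma. The orange points from *HM13* to *ASXL1*, chosen on this contrast, lie above 0 except for *ID1* in HPCs (−0.17), and *COMMD7* lies at −0.03 and −0.23. Grey points lie among them, with RP3-324O17.4 at −0.61 in HE and 0.70 in HPCs.

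The change from HE to HPCs, averaged over both genotypes, did not take part in the choice of the genes and was tested. *ID1*, *KIF3B* and *POFUT1* fell and none of the 10 rose, where 11.9% of all tested genes fell and 8.52% rose (limma, Benjamini-Hochberg adjusted p under 0.05). *ID1* fell by 1.71 on the log2 scale (standard error 0.20, adjusted p = 0.00045 from limma), and its level was 3.45 times higher in HE than in HPCs. *KIF3B* fell by 0.79 (standard error 0.22, adjusted p = 0.0326 from limma) and *POFUT1* by 0.61 (standard error 0.18, adjusted p = 0.0427 from limma). *ID1* kept its call in 17 of 17 alternative settings, with adjusted p from 0.00060 to 0.0040 from limma. *KIF3B* kept it in 7 (0.0126 to 0.105) and *POFUT1* in 4 (0.0149 to 0.133), and leaving out any 1 library other than WT HPC replicate 1 ended the call of *POFUT1*. The same omissions except KO HPC replicate 1 ended that of *KIF3B*.

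The other 7 genes had adjusted p from 0.0843 to 0.264 (limma). *BCL2L1* (0.43) and *PLAGL2* (0.36) had positive stage differences, and *TPX2*, *PDRG1*, *HM13*, *ASXL1* and *COMMD7* lay between −0.45 and −0.19. The sign was the same within WT and within KO for each of the 10 genes. For *ID1* the stage difference was −1.18 in WT and −2.24 in KO, a gap of −1.06 (standard error 0.40) that follows from its genotype values above and is given with no test. Across the stages the endothelial marker sum went from at least 2795 TPM in HE to at most 799.4 in HPCs, while 10 erythroid markers went from at most 152.7 to at least 5055, and their part in the stage differences was not tested.

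**Figure D3:**
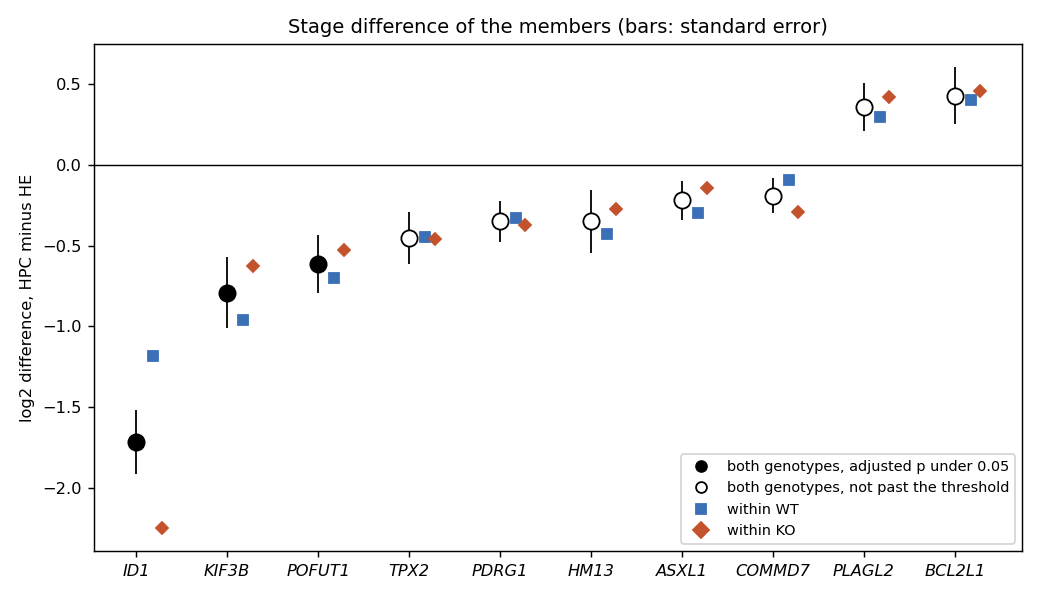
Difference HPC minus HE of log2(TPM + 1) for each of the 10 genes, with circles for the mean over both genotypes, bars for its standard error, filled circles for an adjusted p under 0.05, and squares (WT) and diamonds (KO) for the difference within a genotype. *ID1* is lowest at −1.71, and *PLAGL2* and *BCL2L1* are the only genes above 0.

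In undifferentiated KO hESCs there was no WT library to compare, and the 2 libraries carry the column names GATA2-KO-H1P38 (replicate 1) and GATA2-KO-H1P58 (replicate 2). The labels do not say what P38 and P58 mean, and with 1 library each the values have no test. *BCL2L1* was at 107.7 TPM in the first and 70.0 in the second, and *ID1* at 133.1 and 77.8. These were the widest gaps among the 10 genes, −0.61 and −0.77 on the log2 scale (replicate 2 minus 1), outside the 10th to 90th percentile of the 9427 genes averaging 10 TPM or more (−0.47 to 0.47). The other 8 genes differed by −0.22 to 0.16, among them *TPX2* at 114.7 and 119.2 and *HM13* at 195.2 and 174.0. The median over the 10 genes was −0.16, beside −0.02 over those 9427 genes, and 8 of the 10 were lower in replicate 2.

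Between KO hESCs and KO HE, 8 of the 10 genes had KO HE means of 0.76 to 1.58 times the hESC mean, and *ASXL1* and *ID1* lay higher. *ASXL1* was at 14.0 and 15.7 TPM in KO hESCs and 6.50 times higher in KO HE, while *ID1* was 3.59 times higher in KO HE. *PDRG1* was at 42.4 and 40.2 in KO hESCs and 40.8 in KO HE, and *PLAGL2* at 21.6 and 20.6 beside a KO HE mean of 16.1. *POFUT1* was at 35.7 and 30.4, *KIF3B* at 19.2 and 17.1 and *COMMD7* at 44.8 and 40.2. Over the 10 genes, 6 were higher and 4 lower in KO HE than in KO hESCs, and in KO HPCs it was 5 and 5. Their median log2 difference from KO hESCs was 0.27 in KO HE and −0.02 in KO HPCs, beside −0.02 and 0.00 over all genes tested.

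Relatives and complex partners of the 10 genes that lie elsewhere gave a view of the same families. Of 80 such genes 77 were tested, and none passed the threshold for genotype in HE or in HPCs (limma, adjusted p under 0.05; 2 and 5 genes at an unadjusted p under 0.05). KO was above WT in all pairs for 8 of them in HE (10.4%) and 7 in HPCs (9.09%), and for 0 in both stages. Over all tested genes these shares were 13.8% in HE, 19.7% in HPCs and 3.37% in both. The median difference of the relatives was −0.03 in HE and 0.08 in HPCs. The largest mean difference of each list belonged to *BAX*, the pore-forming target of BCL-XL (−0.37 in HE and −0.48 in HPCs), *CENPE* (−0.15 and 0.43), *KIF3C* (0.20 and 0.19), *MBD5* (−0.10 and 0.97), *ID4* (−0.18 and −0.59), *PLAG1* (0.31 and 0.21), *EOGT* (0.22 and 0.43), *SPPL2A* (0.14 and 0.25), *POLR2E* (−0.31 and −0.49) and *CCDC22* (−0.20 and −0.89). None of the 12 mitotic genes listed with *TPX2* passed the threshold for genotype or stage.

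**Figure D4:**
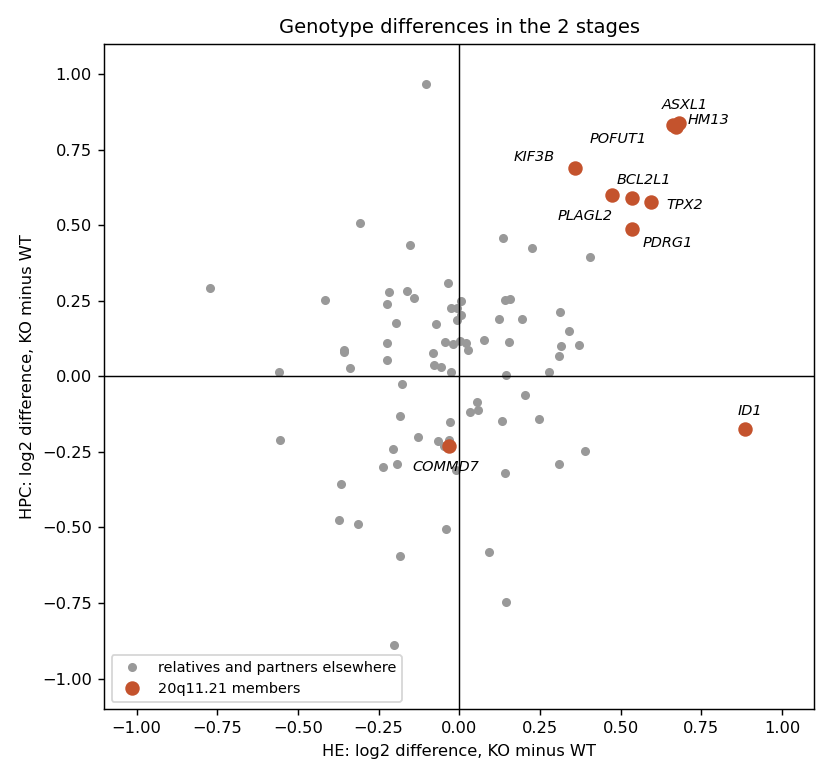
Difference KO minus WT of log2(TPM + 1) in HE (horizontal) and HPCs (vertical) for the 10 genes (orange, named) and 77 relatives and partners elsewhere (grey). The 8 orange genes high in both stages lie at 0.36 to 0.68 in HE and 0.49 to 0.84 in HPCs, while the relatives have medians of −0.03 and 0.08. The orange genes were chosen on these differences and the relatives were not, so nothing is read from the gap.

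From HE to HPCs, 8 of the 77 relatives rose and 16 fell (limma, adjusted p under 0.05), where 8.52% of all tested genes rose and 11.9% fell. These 24 calls became 15 without a trend in the variance, 15 without WT HE replicate 2 and 15 without KO HE replicate 1. Beside *POFUT1*, 9 of the 10 tested genes in its list of Notch receptors and sugar transferases changed. *NOTCH1* (−1.31), *NOTCH4* (−2.96), *LFNG* (−3.18), *MFNG* (−0.60), *EOGT* (−1.49) and *POFUT2* (−0.82) fell, and *NOTCH2* (0.93), *RFNG* (0.73) and *POGLUT1* (0.56) rose. Beside *KIF3B*, its kinesin-2 relatives *KIF3C* (−1.09), *KIFAP3* (−0.73) and *KIF17* (−1.75) fell, while *KIF3A* (−0.57) did not pass the threshold. Beside *ID1*, *ID3* fell by 3.88 on the log2 scale, while *ID2* (0.44) and *ID4* (−0.08) did not pass. In the BCL2 family *BCL2* (−1.28), *BAD* (−1.04) and *BAK1* (−0.58) fell and the pro-apoptotic *BCL2L11*, which encodes BIM, rose (1.11). The remaining calls were *OGT* (1.33), *COMMD3* (0.56), *UXT* (0.49) and *PFDN6* (0.64), which rose, and *COMMD2* (−1.23), *RUVBL2* (−0.50) and *PLAGL1* (−0.52), which fell.

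The genes with a profile most like the mean of the 10 were found over the 8 HE and HPC libraries, after each stage was centred on its own mean, among 11913 genes averaging 5 TPM or more. *ITPKB* (r = 0.984), *SLC25A4* (0.980), *TM9SF4* (0.979), *DENND4A* (0.978) and *PAQR6* (0.975) led the order, with Pearson's r as a description of libraries that share genotype and clone. *TM9SF4*, at rank 3 of 11913, was the one on chromosome 20. Its neighbours *NOL4L* (r = 0.777) and *CCM2L* (0.739) ranked 383 and 549. RP3-324O17.4, also in the interval, ranked 5340 (r = 0.162), but its replicates varied widely, with an SD of 0.64 on the log2 scale. *DENND4A* differed by 0.74 in HE and 0.82 in HPCs, and *PAQR6* by 1.20 and 1.26, so likeness in profile did not require the same size of difference.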

How the data were processed

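RNA-Seq was analysed in 10 libraries of H1 hESCs and their sorted derivatives. TruSeq libraries were read by the authors as short single-end reads on a MiSeq, trimmed with Trimmomatic and aligned to hg19 with Bowtie. The authors deposited TPM per gene with 2 decimals. RSEM is listed in the submitters' processing notes without a role. No strand-specific counting is stated. TPM keeps no depth, so no counting interval can be given.

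From the deposited TPM, log2(TPM + 1) of the 21543 genes reaching 1 TPM in 2 or more libraries entered limma 3.58.1 (R 4.3.3; functions lmFit, contrasts.fit and eBayes, with trend), with 5 groups in 1 fit, two-sided, and Benjamini-Hochberg adjustment over all genes at 0.05. Differences and standard errors in the text come from this fit, and multiples come from group means of TPM. The procedure was tested on simulated data. Tables were made in Python 3.11.15 with numpy 2.4.6 and pandas 2.3.3. Positions come from GENCODE on GRCh37, and promoter sequences from RefSeq (GRCh38), located in GRCh37 by exact match.

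The 10 genes, the lists of relatives and neighbours and the tests were chosen with earlier results of these data known. Named genes are the 10 genes, expressed neighbours between them, *GATA2*, relatives past the threshold or with the largest genotype difference of their list, and the 5 genes most alike in profile. RP1-310O13.12 and RP3-324O17.4 were added by position, and 1 neighbour is counted but not reported here by itself. The nearest flanking genes were taken by position after the files were read, while the medians of the 2 flanks used lists of gene symbols. Alternatives were a pseudocount of 0.1, no filter, quantile normalization, rescaling without mitochondrial and short RNA genes, no trend, a replicate block, only the libraries of a comparison, and each library left out. The WT hESC samples were not analysed here.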

Additional observations from a re-analysis of the deposited data

How the results depend on the processing

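The genotype medians over the 10 genes ran from 0.42 to 0.66 in HE and from 0.53 to 0.73 in HPCs under the 17 alternatives. The genes were chosen on this contrast in these libraries, so the kept positive sign is a description and no support. The count of genes with a fall from HE to HPCs past the threshold was 3, and it was 1 (*ID1*) with no filter on low values, where more genes were tested, and 1 with only the libraries of the comparison, where fewer libraries gave the variance. Quantile normalization gave 1 gene (*BCL2L1*) with a rise (the cause was not tested). Leaving out 1 library at a time gave 1 to 3 genes with a fall and 0 with a rise. Among the relatives, 24 changed with stage, 15 without a trend in the variance (the cause was not tested), and 15 to 23 with 1 library left out. The fits with 1 library in a group assume that it varies like the others.

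Groups share replicate numbers. The correlation of replicate differences was 0.123 between the HE groups and 0.055 between the HPC groups, and −0.014 to 0.032 between other groups, and the labels do not say that a number marks a shared batch, although the column headers of replicate 2 of the HE and HPC groups share an unexplained mark. With the replicate block, 3 of the 10 genes fell from HE to HPCs past the threshold, with 0 rising. Precision rests on 2 libraries per group, and depth could not be assessed.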
